A study of Mus musculus with 10 samples.

Results

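The genes described here were higher in every Camk2d knockout (KO) clone than in every Camk2d-intact sample of mpkCCD cells. They were chosen by their RNA-seq values in a table of 55414 genes: 13047 genes had a mean of at least 1 TPM (an abundance scaled by transcript length and to the same total in every sample) over the 10 samples, and 209 of these had their lowest KO value above their highest intact value, which is 1.60% of the genes that could qualify. Ahnak and Phldb1 were left out by name, as was any gene whose symbol marks it as a ribosomal, mitochondrial genome, NADH dehydrogenase, proteasome, Rab, collagen, laminin or integrin gene, which here removed Rab21 alone, so 206 genes remained. In the opposite direction, 73 genes (0.560%) were lower in every KO clone. Because the KO and intact values chose the 206 genes, the difference between KO and intact samples is given as a description and carries no test.

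mpkCCD cells are an immortalized line of mouse kidney collecting duct, and CAMK2D is the delta isoform of calcium/calmodulin-dependent protein kinase II, which vasopressin signalling can activate through a rise in cell calcium. All 10 samples were of the mpkCCDc11-38 line (C57BL/6 background) grown on filters with 0.1 nM dDAVP, a vasopressin V2-receptor agonist, for 7 days. The 5 KO samples were 5 clones grown from single cells after transfection of Cas9 with a guide for exon 8 (KO 1 and KO 2) or exon 9 (KO 3, KO 4 and KO 5) of Camk2d; the guide of each clone was read from the study's list of mutations, by clone number, and is not among the sample labels. The 5 intact samples came from 3 cell lines, namely the untransfected parental line (1 sample) and 2 clones that went through transfection and kept CAMK2D (2 samples each). It is not stated whether the 2 samples of an intact clone were separate cultures, so a p-value between the intact clones may measure technical spread alone, and each KO sample is 1 clone.

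Camk2d itself was at 123 to 141 TPM in the intact samples and at 19.8 to 29.8 TPM in the KO clones. Of the collecting duct principal cell markers, Aqp2, Avpr2, Scnn1a, Gata3 and Fxyd4 were above 100 TPM in every sample, whereas Elf5, Kcnj1 and Scnn1b stayed below 0.4 TPM. The 12 principal cell markers summed to 5082 to 7066 TPM in intact samples and to 2462 to 5305 TPM in KO clones, most of it Aqp2, the vasopressin-regulated water channel, which was at 3773 to 5502 TPM (median 4084) in intact samples and 1281 to 3789 TPM (median 2856) in KO clones. Fibroblast and endothelial markers summed to at most 0.61 TPM in any sample. Macrophage markers summed to 15.1 to 21.9 TPM in intact samples and 14.9 to 30.3 TPM in KO clones, nearly all of it Csf1r and Cd68, with Adgre1 at 0 and Lyz2 at most 0.04 TPM. Proximal tubule markers summed to 7.58 to 13.02 TPM and 6.69 to 15.1 TPM, nearly all of it Lrp2. Of the 8 intercalated cell markers, 7 stayed below 1.5 TPM in every sample, and the list summed to 1.14 to 90.0 TPM in intact samples and to 2.08 to 159.7 TPM in KO clones, with Rhcg the gene that varied most; the part of such differences between clones in the results was not tested. The sequencing depth of each sample is not kept in TPM and is unknown. In these bulk samples, fewer cells with a transcript and less of it per cell cannot be told apart.

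The 206 genes do not form 1 pathway. Sorted by known function after their names were seen, 149 of them fell into small groups and 57 into none. The groups include proteins that read, modify or repress chromatin, DNA-binding transcription factors, factors that process or destroy mRNA, proteins that nucleate and anchor actin, and GTPase regulators of Golgi and endosome traffic, and no share of such groups among all expressed genes was measured. Members of a pair of signalling chains are among them. In Notch signalling, gamma-secretase frees the Notch intracellular domain, which joins the DNA-binding protein RBPJ and a Mastermind coactivator, and in collecting duct this pathway is known for the choice between principal and intercalated cell fates. In AKT and mTORC1 signalling, AKT kinases inactivate the TSC2 complex and thereby release mTORC1, a kinase that adjusts growth to nutrients.

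The differences were small. Mean TPM in KO over mean TPM in intact samples had a median of 1.17 over the 206 genes, with quartiles of 1.12 and 1.247 and a range of 1.04 to 2.04, against a median of 1.02 over all 13047 genes. The ratio was at least 1.1 for 178 genes, at least 1.2 for 76, at least 1.5 for 8 and at least 2 for 1. On the log2(TPM + 1) scale the median difference between the group means was 0.21 over the 206 genes and 0.03 over all 13047. Clone by clone, the median difference from the intact mean was 0.21 in KO 1, 0.25 in KO 2, 0.19 in KO 3, 0.21 in KO 4 and 0.17 in KO 5. The genes were expressed at 1.02 to 942 TPM (median 34.1), and 170 of them were at 10 TPM or more.

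The gap that separated the groups was narrower still. The lowest KO value lay above the highest intact value by a median of 2.23%, by at least 5% for 37 genes and by at least 10% for 11. Just inside the rule were Gtf2i (highest intact sample 71.56 TPM, lowest KO clone 71.59 TPM), Rcl1 (62.9 and 62.93 TPM) and Mapk13 (180.66 and 180.78 TPM). Just outside it were Gsk3a (47.4 and 47.39 TPM), Ccdc120 (28.03 and 28.01 TPM) and Aida (12.92 and 12.91 TPM). The parental line, which did not go through the Cas9 transfection and the single-cell cloning that followed it, was the highest intact sample for 68 of the 206 genes and the lowest for 13. For 26.5% of the other genes at 1 TPM or more the parental line was the highest intact sample, and for 17.7% the lowest.

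**Figure D1:**
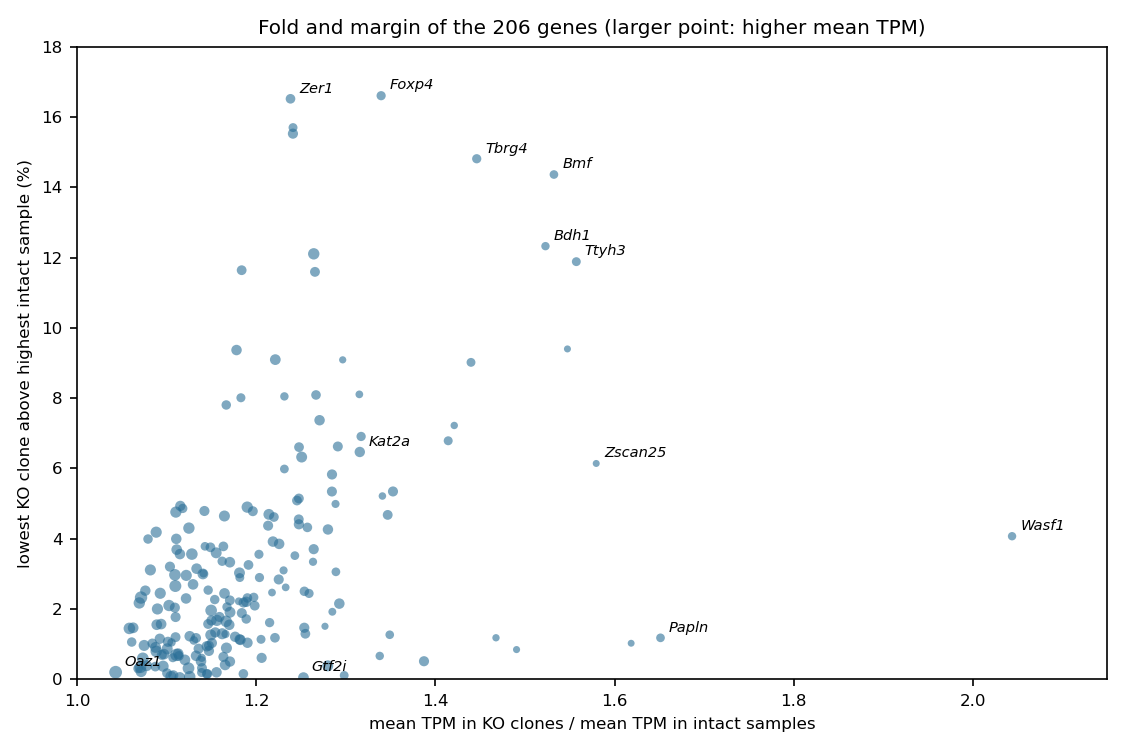
Each point is 1 of the 206 genes, with the ratio of mean TPM in 5 KO clones to mean TPM in 5 intact samples on the x axis, the percentage by which the lowest KO clone exceeded the highest intact sample on the y axis, and larger points for higher mean TPM. Most points lie below a ratio of 1.247, the upper quartile, and a margin of 5%, Wasf1 has the largest ratio, and Foxp4 and Zer1 have the widest margins.

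The 6 genes with the widest margin were Foxp4, Zer1, Phf2, Ctdnep1, Tbrg4 and Bmf. Foxp4, a forkhead transcription factor that acts mainly as a repressor, was at 11.9 TPM in the parental line, 11.9 and 10.5 in the samples of intact clone 1, 9.99 and 12.5 in those of intact clone 2, and 15.1, 15.8, 15.8, 14.8 and 14.5 in KO 1 to KO 5. Its lowest KO clone was 16.6% above its highest intact sample. Zer1, a substrate receptor of cullin 2 ubiquitin ligases that recognizes N-terminal glycine, was at 19.7 TPM in the parental line, 19.97 and 18.5 in the samples of intact clone 1, 17.7 and 19.2 in those of intact clone 2, and 23.3, 23.9, 23.3, 23.9 and 23.3 in KO 1 to KO 5. The 5 KO clones thus lay within 1 TPM of each other.

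Phf2, a histone demethylase of the PHD finger family, was at 9.19 TPM in the parental line, 9.36 and 9.07 in the samples of intact clone 1, 8.55 and 9.32 in those of intact clone 2, and 10.8, 12.4, 11.6, 10.8 and 10.8 in KO 1 to KO 5. Ctdnep1, a nuclear envelope phosphatase that acts on the lipin family and so on membrane lipid synthesis, was at 33.1 TPM in the parental line, 35.5 and 32.8 in the samples of intact clone 1, 31.9 and 35.9 in those of intact clone 2, and 41.4, 42.4, 41.5, 42.7 and 41.97 in KO 1 to KO 5. In neither gene did any KO clone come within 15% of the highest intact sample. Tbrg4, a mitochondrial RNA-binding protein of the FASTK family, was at 12.7 TPM in the parental line, 10.6 and 8.81 in the samples of intact clone 1, 10.9 and 13.2 in those of intact clone 2, and 15.4, 16.6, 15.5, 15.1 and 18.5 in KO 1 to KO 5. It averaged 11.2 ± 1.74 TPM in intact and 16.2 ± 1.40 TPM in KO samples (SD, n = 5 each).

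Bmf, a BH3-only protein that promotes apoptosis and can be held at the actin cytoskeleton, was at 5.95 TPM in the parental line, 6.67 and 4.58 in the samples of intact clone 1, 5.61 and 6.89 in those of intact clone 2, and 10.3, 9.14, 10.2, 7.88 and 7.90 in KO 1 to KO 5. Its mean was 1.53 times as high in KO as in intact samples, so that it was also among the 8 largest ratios. In all 6 genes the values of the exon 8 and the exon 9 clones overlapped.

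The promoters of the 4 genes with the widest margin are printed here because their groups were the best separated, so that the sequence at their start sites stands beside their values. Each runs from 250 bases before to 50 bases after the annotated start site in the RefSeq promoter table (GRCm38.p6), 5′ to 3′ on the strand of the gene, and the capitals mark matches to the motifs listed after them. Foxp4 lies on the minus strand at chr17:47924583-47924882, Zer1 on the minus strand at chr2:30124562-30124861, Phf2 on the minus strand at chr13:48870836-48871135 and Ctdnep1 on the plus strand at chr11:69980918-69981217.
Foxp4: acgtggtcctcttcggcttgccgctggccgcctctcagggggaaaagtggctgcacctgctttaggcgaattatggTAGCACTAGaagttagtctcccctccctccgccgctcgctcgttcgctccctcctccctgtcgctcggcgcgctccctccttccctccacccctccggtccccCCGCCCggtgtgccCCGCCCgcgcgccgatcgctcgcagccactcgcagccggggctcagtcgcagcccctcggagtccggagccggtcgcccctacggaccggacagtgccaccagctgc
Zer1: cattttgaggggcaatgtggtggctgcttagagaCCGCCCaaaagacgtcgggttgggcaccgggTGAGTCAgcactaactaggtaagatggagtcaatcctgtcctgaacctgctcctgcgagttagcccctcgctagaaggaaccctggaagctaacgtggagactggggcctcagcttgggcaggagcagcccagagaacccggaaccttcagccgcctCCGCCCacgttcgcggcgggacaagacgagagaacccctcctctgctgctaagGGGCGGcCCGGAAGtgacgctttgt
Phf2: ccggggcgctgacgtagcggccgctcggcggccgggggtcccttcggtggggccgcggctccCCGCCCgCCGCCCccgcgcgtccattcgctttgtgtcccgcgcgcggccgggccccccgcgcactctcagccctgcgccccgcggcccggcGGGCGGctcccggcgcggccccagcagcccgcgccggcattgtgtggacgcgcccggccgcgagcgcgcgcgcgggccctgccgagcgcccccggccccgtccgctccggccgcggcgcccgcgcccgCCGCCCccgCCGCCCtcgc
Ctdnep1: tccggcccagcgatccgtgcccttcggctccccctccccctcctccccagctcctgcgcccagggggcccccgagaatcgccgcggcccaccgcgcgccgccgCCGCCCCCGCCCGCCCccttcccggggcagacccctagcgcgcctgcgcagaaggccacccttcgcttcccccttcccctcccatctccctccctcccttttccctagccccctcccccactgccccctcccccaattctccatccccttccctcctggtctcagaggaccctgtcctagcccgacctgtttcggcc

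The motifs searched on both strands were the GC box GGGCGG, the E-box CACGTG, the cyclic AMP response element CRE (TGACGTCA), the AP-1 motif TGANTCA, the TEAD motif GGAATG, the MEF2 motif CTANNNNTA and the ETS motif CCGGAAG. All 4 promoters held GC boxes, with 2 in Foxp4, 3 in Zer1, 5 in Phf2 and 3 in Ctdnep1, of which 2 overlap each other. Foxp4 also held 1 MEF2 match, and Zer1 held 1 AP-1 and 1 ETS match. The GC content of these windows was 70.3% in Foxp4, 60.7% in Zer1, 87% in Phf2 and 74% in Ctdnep1.

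Promoters were found in the table for 167 of the 206 genes. A GC box was present in 74.9% of them, against 66.6% of 9356 promoters of genes with a mean of at least 1 TPM and 35.9% of all 27025 promoters. MEF2 matches were present in 8.98%, against 13.9% of the expressed and 20.98% of all promoters. For the E-box the shares were 9.58% and 10.5% of the expressed, for ETS 17.4% and 19.9%, for TEAD 14.4% and 11.9%, for AP-1 4.79% and 4.62%, and for CRE 3.59% and 3.39%. A match is a run of letters and not a site of binding, and these shares were not tested.

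**Figure D2:**
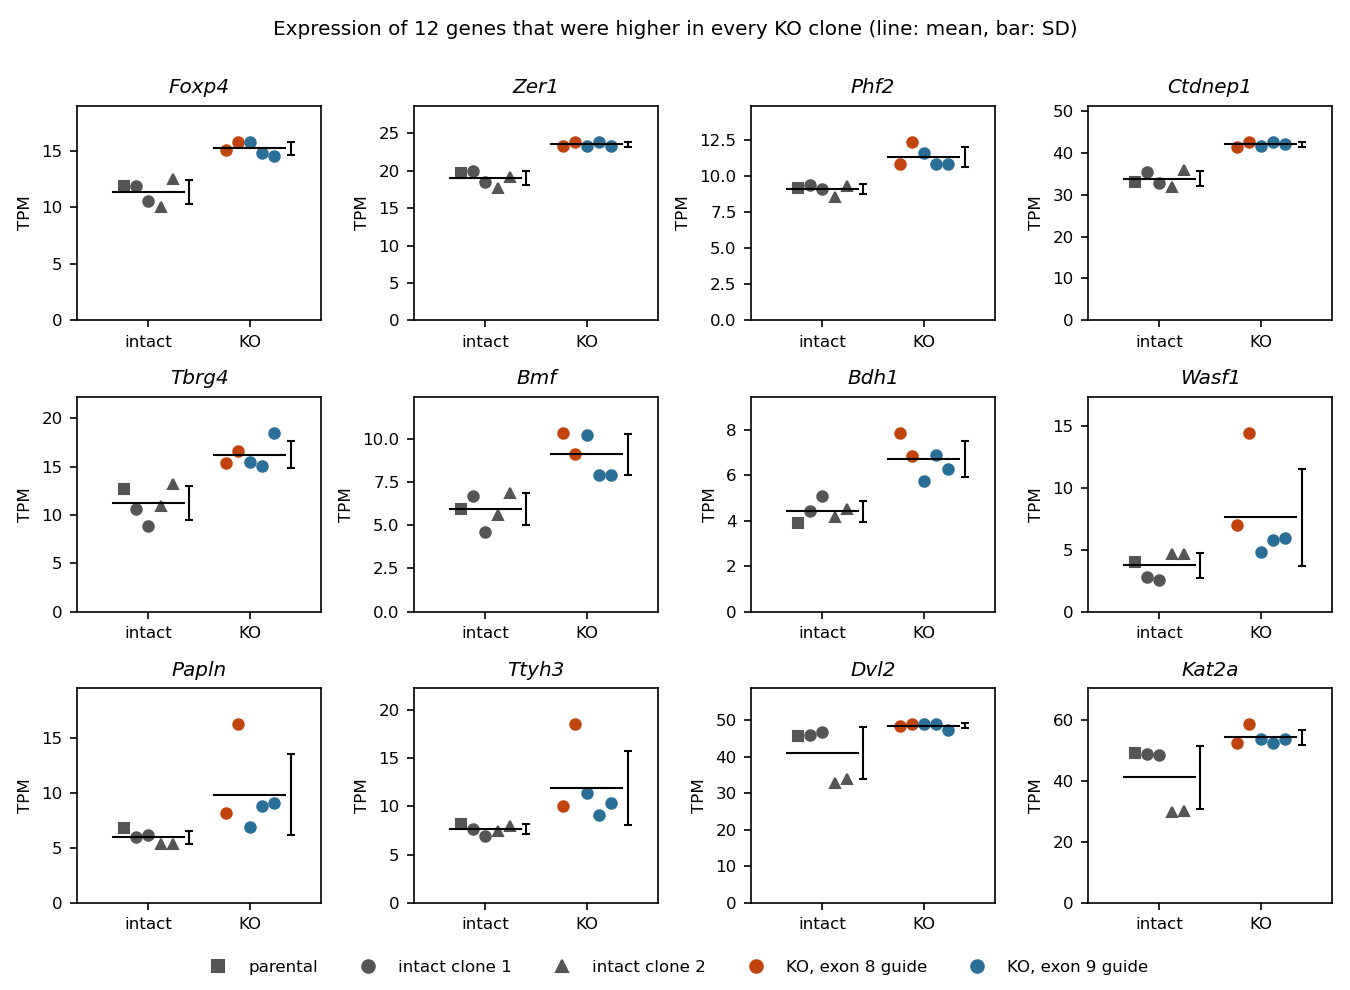
TPM of 12 of the 206 genes in 5 intact samples (grey; square, parental line; circles, intact clone 1; triangles, intact clone 2) and 5 KO clones (orange, exon 8 guide; blue, exon 9 guide), with the mean as a line and the SD as a bar beside it. The first 6 panels hold the widest margins, KO 2 stands high for Wasf1, Papln and Ttyh3, and intact clone 2 stands low for Dvl2 and Kat2a.

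The largest ratios belonged to Wasf1, Papln, Gm43359, Zscan25, Ttyh3, Gm7832, Bmf and Bdh1. Wasf1 (WAVE1), which activates the Arp2/3 complex downstream of Rac, was at 3.98 TPM in the parental line, 2.76 and 2.58 in the samples of intact clone 1, 4.67 and 4.66 in those of intact clone 2, and 7.03, 14.5, 4.86, 5.82 and 5.95 in KO 1 to KO 5. KO 2 was more than double the other KO clones, and without it the ratio to the intact mean was 1.59 in place of 2.04. Papln, which encodes an extracellular matrix glycoprotein, was at 6.81 TPM in the parental line, 6.04 and 6.17 in the samples of intact clone 1, 5.40 and 5.38 in those of intact clone 2, and 8.15, 16.3, 6.89, 8.81 and 9.06 in KO 1 to KO 5. Ttyh3, a Tweety family membrane protein, was at 8.16 TPM in the parental line, 7.68 and 6.89 in the samples of intact clone 1, 7.48 and 7.99 in those of intact clone 2, and 10.1, 18.5, 11.4, 9.13 and 10.4 in KO 1 to KO 5. KO 2 was again the highest, and without it the ratios of Papln and Ttyh3 were 1.38 and 1.34 in place of 1.65 and 1.56.

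Bdh1 makes the ketone body beta-hydroxybutyrate in mitochondria and was at 3.91 TPM in the parental line, 4.42 and 5.11 in the samples of intact clone 1, 4.15 and 4.50 in those of intact clone 2, and 7.88, 6.86, 5.74, 6.88 and 6.28 in KO 1 to KO 5. No KO clone stood apart from the others, and the ratio was 1.52. Zscan25, a zinc finger protein, and the predicted genes Gm43359 and Gm7832 had ratios of 1.58, 1.62 and 1.55, but none of the 3 passed 1.7 TPM in any sample. Over all 206 genes KO 2 was at least 1.5 times the mean of the other KO clones for 6 genes, and it was the highest KO clone for 76 (36.9%), against 34.9% of the other genes at 1 TPM or more. The median ratio of the 206 genes was 1.16 without KO 2, and 5 genes kept a ratio of at least 1.5.

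At the other end of the scale were the most abundant of the 206 genes, whose ratios were small. Oaz1, an inhibitor of ornithine decarboxylase and so of polyamine synthesis, was at 903 TPM in the parental line, 930.0 and 921 in the samples of intact clone 1, 928 and 929 in those of intact clone 2, and 1020.2, 972, 947, 932 and 937 in KO 1 to KO 5. Its ratio of 1.04 was the lowest of all 206. Hsp90b1, the HSP90 chaperone of the endoplasmic reticulum, was at 522 TPM in the parental line, 541 and 549 in the samples of intact clone 1, 532 and 516 in those of intact clone 2, and 562, 579.6, 574, 567 and 566 in KO 1 to KO 5. Neither group of Hsp90b1 values spread over more than 34 TPM, and their ratio was 1.07.

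Cttn (cortactin, which stabilizes branched actin) had intact values of 241, 242, 241, 224 and 244 TPM in the order given above and KO values of 245, 294, 246, 245 and 246 TPM. Apart from KO 2, its KO clones were within 3 TPM of the highest intact sample. Selenow, a small selenoprotein, had 312 ± 9.33 TPM in intact and 346 ± 18.02 TPM in KO samples (SD, n = 5 each), and C1qbp, a multifunctional protein of the mitochondrial matrix, had 241 ± 2.60 TPM in intact and 259 ± 18.2 TPM in KO samples. Nisch, which binds integrin alpha 5 and imidazoline ligands, had 231 ± 7.21 TPM in intact and 260.1 ± 22.5 TPM in KO samples, and Cep170b, a microtubule-associated protein, had 193 ± 5.96 TPM in intact and 222 ± 11.2 TPM in KO samples. These 4 ratios ran from 1.07 to 1.149.

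Grouped by what their products are known to do, 149 of the 206 genes were placed in 18 groups, which were drawn up after the names of the genes were known and so are a reading aid and not a result. The groups' median ratios all lay between 1.11 and 1.23.

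**Figure D3:**
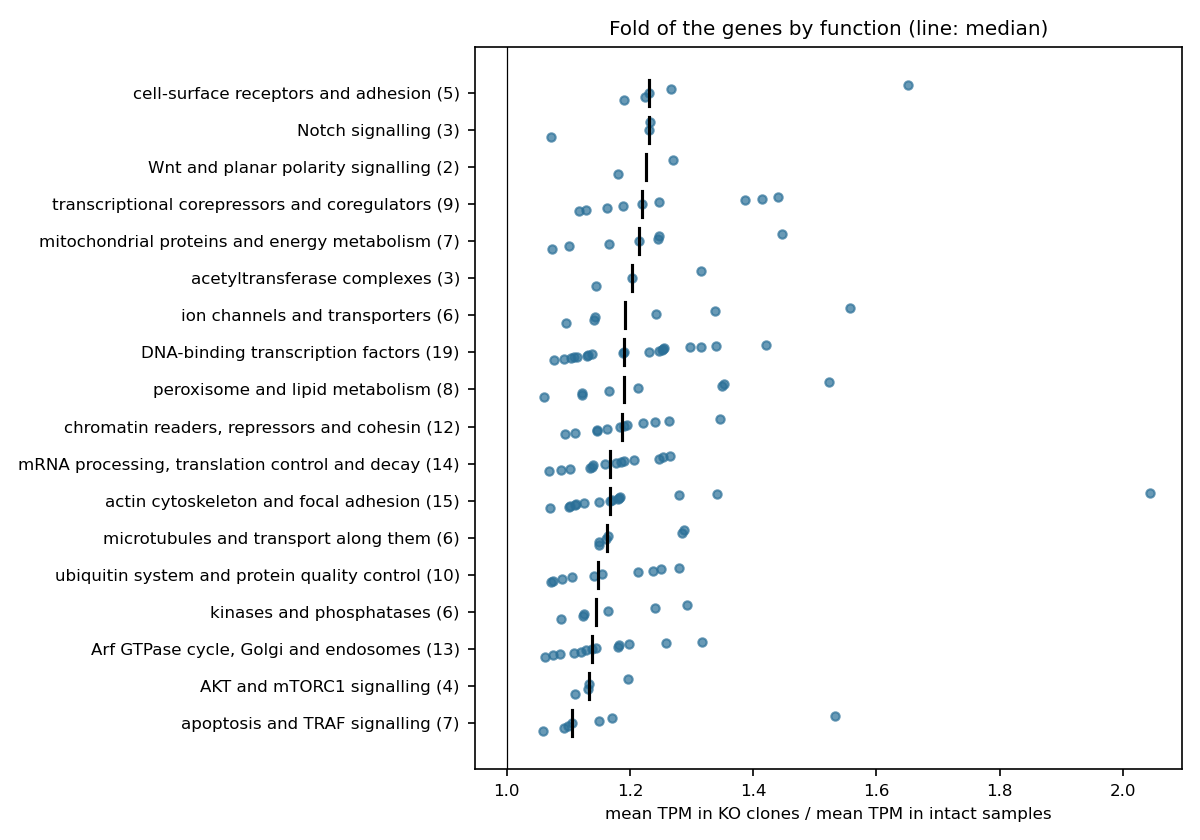
Ratio of mean TPM in 5 KO clones to mean TPM in 5 intact samples (x axis) for 149 genes in 18 groups of function (y axis, with the number of genes in brackets), each point a gene and each line the median of its group. The medians lie between 1.11 and 1.23, and single genes such as Wasf1 in the actin group reach further.

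Several of the groups hold genes that act in the nucleus. Among 19 DNA-binding transcription factors (median ratio 1.19) were Foxp4, the MAX partner Mnt (group means, intact 2.40, KO 3.16 TPM), the regulatory factor Rfx1 (intact 7.92, KO 10.3 TPM), Sp2 (intact 21.2, KO 26.5 TPM), the repressor Bcl6 (intact 47.2, KO 56.2 TPM), the heat shock factor Hsf1 (intact 114, KO 125 TPM) and the sterol regulator Srebf1 (intact 119.6, KO 133 TPM). Nuclear receptors of lipid and clock control were with them, namely Nr1h2 (intact 115, KO 125 TPM), its partner Rxrb (intact 85.3, KO 91.9 TPM) and Nr1d2 (intact 21.3, KO 25.4 TPM). The highest ratio of the group was 1.42, in Tcf24.

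Corepressors and coregulators (9 genes, median ratio 1.22) included the Groucho family members Tle3 (intact 8.63, KO 12.2 TPM) and Tle6 (intact 34.5, KO 43.03 TPM), the GATA cofactors Zfpm1 (intact 7.78, KO 11.2 TPM) and Zfpm2 (intact 20.2, KO 24.6 TPM), and Zmiz2 (intact 30.2, KO 41.9 TPM), a coactivator related to PIAS proteins. Tle3 was at 7.64 TPM in the parental line, 10.02 and 8.71 in the samples of intact clone 1, 6.88 and 9.89 in those of intact clone 2, and 10.7, 14.3, 10.9, 12.2 and 12.9 in KO 1 to KO 5. Its lowest KO clone was 6.79% above its highest intact sample. Mrtfa, the actin-sensing coactivator of serum response factor, had 21.1 ± 0.980 TPM in intact and 24.6 ± 1.89 TPM in KO samples.

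Chromatin readers, repressors and cohesin (12 genes, median ratio 1.19) included Phf2, the BHC80 subunit of a demethylase complex Phf21a (intact 22.1, KO 29.8 TPM), the G9a partner Wiz (intact 33.5, KO 42.3 TPM), the heterochromatin protein Bahd1 (intact 19.6, KO 23.9 TPM), the Polycomb subunit Phc1 (intact 27.1, KO 32.4 TPM) and the cohesin subunit Rad21 (intact 131, KO 156 TPM). Genes of histone acetyltransferase complexes were with them. They were Kat2a, the GCN5 acetyltransferase of SAGA, Atxn7l3 of its deubiquitinating module (intact 11.1, KO 13.4 TPM), and Kat8, which acetylates histone H4 (intact 19.5, KO 22.3 TPM). A separate list of 58 chromatin modifiers and remodellers, of which 55 were expressed at 1 TPM or more, held none of the 206 genes. Of the 55, 43 had a log2 difference above 0, against 7808 of all 13047 genes at 1 TPM or more.

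Factors that act on mRNA numbered 14 (median ratio 1.17). Cpsf7, of the cleavage factor that sets poly(A) sites, was at 24.9 TPM in the parental line, 25.2 and 23.2 in the samples of intact clone 1, 22.6 and 24.3 in those of intact clone 2, and 34.9, 31.3, 29.6, 28.3 and 28.1 in KO 1 to KO 5. The splicing factor Sf3a1 (intact 34.2, KO 42.8 TPM), the double-stranded RNA binding transport protein Stau2 (intact 34.2, KO 41.2 TPM), the deadenylase scaffold Cnot3 (intact 31.4, KO 36.4 TPM), the AU-rich element binder Zfp36l2 (intact 49.6, KO 58.4 TPM), the translational repressor Pum2 (intact 26.5, KO 30.2 TPM) and the nonsense-mediated decay factor Smg9 (ratio 1.19) belonged to the same group. The margins of these 7 ranged from 0.316% for Pum2 to 11.6% for Cpsf7.

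Actin and focal adhesion genes numbered 15 (median ratio 1.17). Besides Wasf1 they included Whamm, another Arp2/3 activator that works on Golgi membranes (intact 10.3, KO 12.2 TPM), the integrin activator talin Tln1, the parvin Parva (intact 108, KO 124 TPM), the myosin phosphatase partner Mprip (intact 139.5, KO 154 TPM), Gas2l1, which links actin to microtubules (intact 83.9, KO 107 TPM), the talin-binding phosphoinositide kinase Pip5k1c (intact 78.5, KO 92.7 TPM) and the GTPase regulators Arhgef5 and Arhgap33 (intact 1.88, KO 2.53 TPM). Tln1 was at 43.9 TPM in the parental line, 42.4 and 44.04 in the samples of intact clone 1, 39.5 and 41.7 in those of intact clone 2, and 49.6, 52.2, 44.3, 51.4 and 50.2 in KO 1 to KO 5. KO 3 was close to the intact samples for Tln1, whereas the other KO clones were at least 5 TPM higher. Arhgef5 had 59.6 ± 3.41 TPM in intact and 66.3 ± 1.92 TPM in KO samples.

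For the microtubule genes (6, median ratio 1.16), the dynein intermediate chain Dync1i2 had 62.1 ± 4.58 TPM in intact and 72.4 ± 4.00 TPM in KO samples and the kinesin-1 recruiter Map7d1 had 32.6 ± 2.47 TPM in intact and 37.5 ± 0.724 TPM in KO samples. Trak1, the adaptor that ties mitochondria to motors, had means of intact 28.3, KO 36.4 TPM, and Mark4, a kinase of microtubule-associated proteins, had means of intact 3.61, KO 4.65 TPM. Arf GTPase, Golgi and endosome genes numbered 13 (median ratio 1.14). They included the GTPase Arf3 (intact 181, KO 204 TPM) and the Arf exchange factor Gbf1 (intact 68.98, KO 77.3 TPM). With them were the Arf GTPase-activating proteins Asap2 (intact 11.2, KO 14.1 TPM) and Smap1 (ratio 1.198). The Golgi mannosidase Man2a2 (intact 12.3, KO 16.2 TPM) and the proprotein convertase Furin (intact 56.9, KO 67.3 TPM) belonged to the group as well.

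Of 16 gene lists, the Notch pathway list had the highest share, as 3 of its 21 expressed genes (14.3%) were among the 206, against 1.58% of all 13047 genes. Rbpj, the DNA-binding partner of Notch, was at 4.10 TPM in the parental line, 3.76 and 4.03 in the samples of intact clone 1, 4.20 and 3.66 in those of intact clone 2, and 4.70, 5.99, 4.33, 4.60 and 4.68 in KO 1 to KO 5. Maml2, a Mastermind coactivator, was at 2.52 TPM in the parental line, 2.35 and 2.57 in the samples of intact clone 1, 2.68 and 2.34 in those of intact clone 2, and 2.75, 2.89, 3.40, 3.48 and 2.84 in KO 1 to KO 5. Ncstn, the substrate receptor of gamma-secretase, was at 128 TPM in the parental line, 119 and 116 in the samples of intact clone 1, 128 and 129 in those of intact clone 2, and 137, 133, 132, 133 and 129.8 in KO 1 to KO 5. The margins were 3.10%, 2.61% and 0.216%, the level of Rbpj and Maml2 was low, and 18 of the 21 listed genes had a log2 difference above 0, with a median of 0.10, against 7808 of all 13047 genes and a median of 0.03. These include the 3 genes chosen for being higher, and other lists were shifted as far, with medians of 0.14 for the Wnt list (24 of 29 above 0) and the lipid uptake list (15 of 19) and 0.12 for receptor tyrosine kinases and ligands (24 of 34). Of the 3, Rbpj alone met the rule after centring by transcript length or GC content. Maml2 met it under 1 and Ncstn under 0 of 5 other scalings and centrings of the samples.

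Reads of Rbpj can be shared with a copy. The processed pseudogene Rbpj-ps3 was itself among the 206 genes (intact 9.31, KO 11.2 TPM), and 89.0% of the 50-base windows of its transcript also occur in Rbpj. In the other direction 9.69% of the windows of Rbpj occur in Rbpj-ps3. The pseudogene Kansl2-ps shared 92.9% of its windows with Kansl2, and the antisense gene Gm42893 shared 96.9% with Sass6. Among protein-coding members, Moap1 shared 84.3% of its windows with Gm20604, Lrrc8a 65.2% with Gm28035, Smap1 49.6% with B3gat2 and Acsf2 33.3% with Gm5540. The values of these genes are therefore uncertain.

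The 4 AKT and mTORC1 genes had margins of 0.689% (Akt1), 3.14% (Akt2), 0.663% (Tsc2) and 2.33% (Rptor), against the median of 2.23%. Akt1 was at 562 TPM in the parental line, 559 and 524 in the samples of intact clone 1, 531 and 522 in those of intact clone 2, and 655, 618, 582, 566 and 576 in KO 1 to KO 5, with KO 1 and KO 2 the highest. Akt2 had 60.4 ± 3.10 TPM in intact and 68.4 ± 3.69 TPM in KO samples (SD, n = 5 each). Tsc2 was at 57.1 TPM in the parental line, 57.3 and 52.2 in the samples of intact clone 1, 48.9 and 49.6 in those of intact clone 2, and 59.9, 60.9, 57.9, 63.9 and 57.7 in KO 1 to KO 5. Rptor, the substrate-binding subunit of mTORC1, had 12.9 ± 1.06 TPM in intact and 15.4 ± 0.501 TPM in KO samples. The 4 ratios ran from 1.11 to 1.197. None of the 4 met the rule once samples were centred within bins of transcript length or of GC content, and with both the log2 difference went from 0.15 to 0.02 for Akt1, from 0.18 to 0.07 for Tsc2 and from 0.25 to 0.14 for Rptor.

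On the remaining lists the counts were low. Among 34 expressed receptor tyrosine kinases and ligands, Ephb4 and Ptk7 belonged to the 206 genes. Ptk7, a pseudokinase receptor of planar cell polarity, was at 50.6 TPM in the parental line, 45.8 and 45.4 in the samples of intact clone 1, 44.3 and 40.8 in those of intact clone 2, and 59.6, 54.8, 54.3, 64.98 and 54.4 in KO 1 to KO 5. Ephb4, the ephrin-B2 receptor, was at 45.5 TPM in the parental line, 45.03 and 40.1 in the samples of intact clone 1, 46.3 and 46.4 in those of intact clone 2, and 47.2, 71.4, 52.1, 46.9 and 48.3 in KO 1 to KO 5, so that KO 4 and KO 1 lay within 1 TPM of the highest intact sample and KO 2 lay far above.

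The list counts were 2 of 43 for lysosome and autophagy genes (Rptor and Tsc2), 2 of 32 for microtubule genes (Dync1i2 and Map7d1), 1 of 31 for cytoskeletal linkers (Tln1), 1 of 29 for Wnt genes (Dvl2), 1 of 16 for cadherin and planar polarity genes (Ptk7) and 1 of 27 for substrates of CaM kinases with class IIa HDAC and MEF2 genes (Mrtfa). None was found among 26 Hippo, 34 TGF-beta and BMP, 25 plexin and semaphorin, 19 lipid uptake and 31 RNA helicase genes. These counts were not tested against the 1.58% of all genes.

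Several genes of peroxisomes and lipid metabolism were among the 206 (8 genes, median ratio 1.19). Phyh, the peroxisomal hydroxylase of phytanic acid, was at 34.2 TPM in the parental line, 31.4 and 31.8 in the samples of intact clone 1, 21.5 and 25.4 in those of intact clone 2, and 40.4, 43.3, 36.1, 36.99 and 38.4 in KO 1 to KO 5. Pex19, the chaperone that inserts peroxisomal membrane proteins, had 110.4 ± 5.18 TPM in intact and 124 ± 5.65 TPM in KO samples, and Pex26, the anchor of the peroxisomal export machinery, had 16.3 ± 0.541 TPM in intact and 18.96 ± 0.582 TPM in KO samples. The acyl-CoA synthetase Acsf2 (intact 6.19, KO 8.35 TPM) and the fatty acid transporter Slc27a1 (intact 53.2, KO 59.7 TPM) belonged here too. Apoptosis and TRAF genes (7, median ratio 1.11) paired the killers Bmf and Moap1 (intact 34.8, KO 39.96 TPM) with the survival gene Bcl2 (intact 5.59, KO 6.18 TPM), so the group held both promoters and inhibitors of cell death.

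Ion channels and transporters (6 genes) included the beta subunit Kcnab2 of potassium channels (intact 5.10, KO 6.82 TPM), the pacemaker channel Hcn2 (intact 7.20, KO 8.95 TPM) and the volume-regulated anion channel subunit Lrrc8a (intact 4.20, KO 4.79 TPM). The ratios of the group ran from 1.096 to 1.34 without Ttyh3. Of the ubiquitin and protein quality genes (10, median ratio 1.149), the main ubiquitin-activating enzyme Uba1 (intact 115, KO 125 TPM) and the chain-elongating ligase Ube4b (intact 32.9, KO 37.6 TPM) had ratios of 1.09 and 1.14, and the chaperone Bag6 (intact 79.9, KO 99.9 TPM) one of 1.251.

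The guides were compared within the KO clones. The rule did not use the guides, but it did use the lowest of the same 5 KO values, so this contrast is not fully independent of the choice of genes. limma on log2(TPM + 1) with Benjamini-Hochberg adjustment called 62 of 20000 genes (0.310%) different between the exon 9 and the exon 8 clones, and 2 of the 206 genes, Ak3 and Pnpla2, were among them. Ak3, the adenylate kinase of the mitochondrial matrix, was at 170.2 TPM in the parental line, 161 and 163 in the samples of intact clone 1, 169 and 161 in those of intact clone 2, and 221, 213, 173, 178 and 178 in KO 1 to KO 5. The exon 8 clones were thus the highest 2 samples. Its log2 difference, exon 9 minus exon 8, was -0.30 ± 0.05 (SE; limma, adjusted p = 0.044).

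Pnpla2 (ATGL), which starts the breakdown of stored triglyceride, was at 76.00 TPM in the parental line, 76.6 and 77.8 in the samples of intact clone 1, 77.3 and 74.2 in those of intact clone 2, and 111, 101, 84.5, 85.6 and 81.5 in KO 1 to KO 5. Both exon 8 clones were above 100 TPM and all 3 exon 9 clones below 86 TPM, with a log2 difference of -0.33 ± 0.05 (SE; limma, adjusted p = 0.047). Without KO 3, KO 4 or KO 5, or without a sample of an intact clone, none of the 206 genes was called in this contrast, and with 1 value per cell line, the line as a random effect, median-ratio scaling, robust moderation or no trend none was called either; without KO 1, 17 were called, of 1730 genes in all, but that leaves KO 2 as the only exon 8 clone, assumed to vary like the other groups. At an unadjusted p under 0.05, 17 of the 206 genes (8.25%) differed between the guides, against 14.8% of the 13047 genes at 1 TPM or more. The rule used the same KO values, so these shares are not read as a difference.

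The exon 8 clones were a little higher than the exon 9 clones, in the 206 genes and in the other expressed genes. The median log2 difference from the intact mean was 0.24 for the exon 8 clones and 0.20 for the exon 9 clones. The median of the log2 difference, exon 9 minus exon 8, was -0.03 for the 206 genes and -0.02 for the other genes at 1 TPM or more. The exon 9 mean exceeded the exon 8 mean for 76 genes (36.9%), against 45.0% of the other genes at 1 TPM or more. KO 5 was the lowest KO clone for 56 of the 206 genes (27.2%) and the highest for 13 (6.31%). Of the other genes at 1 TPM or more, KO 5 was the lowest KO clone for 17.1% and the highest for 10.4%.

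The intact clones were compared in the same way, with the same limit, since the rule used the highest intact value. limma called 34 of 20000 genes (0.170%) different between intact clone 2 and intact clone 1, and 2 of the 206 genes were among them. Kat2a was at 49.2 TPM in the parental line, 48.6 and 48.3 in the samples of intact clone 1, 29.7 and 30.02 in those of intact clone 2, and 52.4, 58.5, 53.7, 52.4 and 53.8 in KO 1 to KO 5. The parental line and intact clone 1 were close to the KO clones and intact clone 2 was well below, with a log2 difference, clone 2 minus clone 1, of -0.68 ± 0.06 (SE; limma, adjusted p = 0.028). Dvl2, a Dishevelled protein of Wnt signalling, was at 45.6 TPM in the parental line, 46.1 and 46.9 in the samples of intact clone 1, 32.7 and 33.96 in those of intact clone 2, and 48.3, 48.99, 48.9, 48.9 and 47.5 in KO 1 to KO 5. It had the same pattern, with a log2 difference of -0.47 ± 0.05 (SE; limma, adjusted p = 0.036).

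Much of the ratio of these 2 genes therefore came from 1 intact clone. The KO means were 54.1 and 48.5 TPM, the parental line was at 49.2 and 45.6 TPM, and intact clone 2 averaged 29.9 and 33.4 TPM for Kat2a and Dvl2. Neither was called when any 1 sample of the intact clones was left out, which leaves 1 clone with a single sample, or without KO 3, KO 4 or KO 5. At an unadjusted p under 0.05, 15 of the 206 genes (7.28%) differed between the intact clones, against 9.57% of the 13047 genes. Intact clone 1 was the low one for Gas2l1 (66.3 TPM, against 95.6 in both intact clone 2 and the parental line), Zmiz2 (23.2 TPM, against 34.3 and 35.9) and Sf3a1 (28.4 TPM, against 38.8 and 36.5), and intact clone 2 for Phyh (23.4 TPM, against 31.6 in intact clone 1 and 34.2 in the parental line). The adjusted p of these 4 genes missed the threshold, and their intact means include the low clone.

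The 206 genes had long, GC-rich transcripts. The longest annotated transcript had a median of 4056.5 bases, against 3049 bases for 12915 expressed genes with an annotation and 1587 bases for the 73 genes lower in every KO clone. Median transcript GC content was 54.4%, against 49.7% for the expressed genes. In 5 bins of equal size by transcript length, from the shortest to the longest, 0.619%, 0.929%, 1.82%, 2.48% and 2.13% of genes were among the 206. In 5 bins by GC content the shares were 0.813%, 1.05%, 1.12%, 1.59% and 3.41%.

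**Figure D4:**
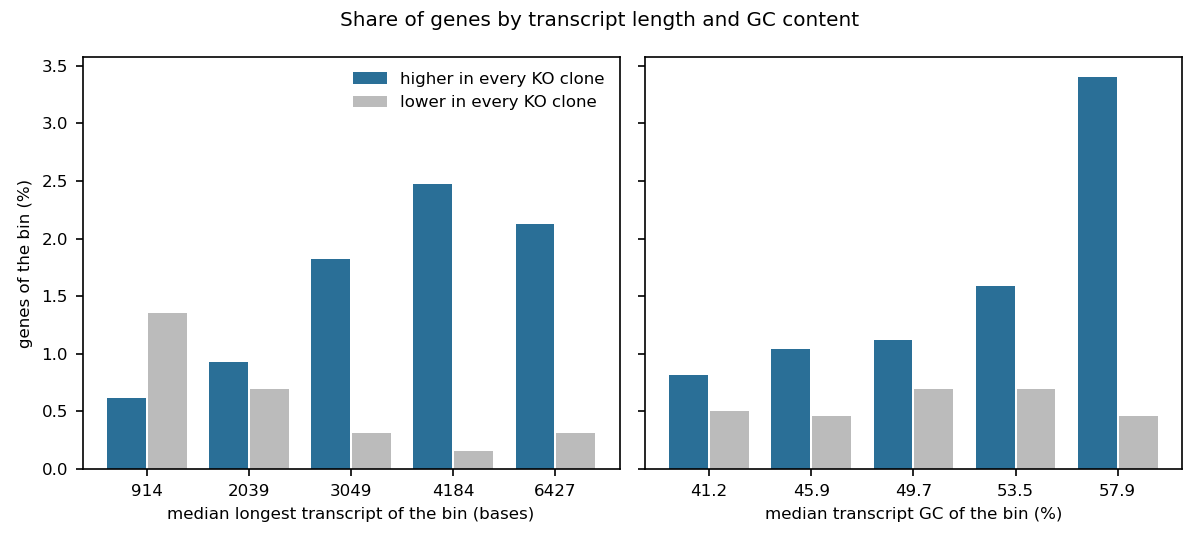
Percentage of expressed genes that were higher (blue) or lower (grey) in every KO clone, in 5 bins by longest transcript (left, x axis in bases) and by transcript GC content (right, x axis in percent), with the median of each bin under its bars. The share of higher genes rises from 0.813% to 3.41% over the GC bins and from 0.619% to 2.48% over the first 4 length bins, and the share of lower genes is highest, at 1.36%, in the shortest bin.

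The share was highest where both were high. With 3 bins for each, 56 of 989 genes in the longest and most GC-rich bins (5.66%) were among the 206, and 5 of 985 in the shortest and least GC-rich bins (0.508%). Of the sets of other genes compared, only those of the highest GC bin differed without overlap, and by little. Among 2495 other genes of the highest of the 5 GC bins, the median deviation from the 10-sample mean was -0.05 to -0.00049 in the intact samples and 0.0015 to 0.07 in the KO clones on the log2(TPM + 1) scale, and the groups did not overlap. Among 2528 other genes of the longest bin the ranges overlapped, at -0.06 to 0.03 in intact and -0.03 to 0.07 in KO samples. Over all 12841 other genes they overlapped too, at -0.03 to 0.01 in intact and -0.01 to 0.04 in KO samples. The same held for the shortest and the lowest GC bins. KO 4, the lowest KO clone in the highest GC bin at 0.0015, was at 0.02 over all other genes.

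**Figure D5:**
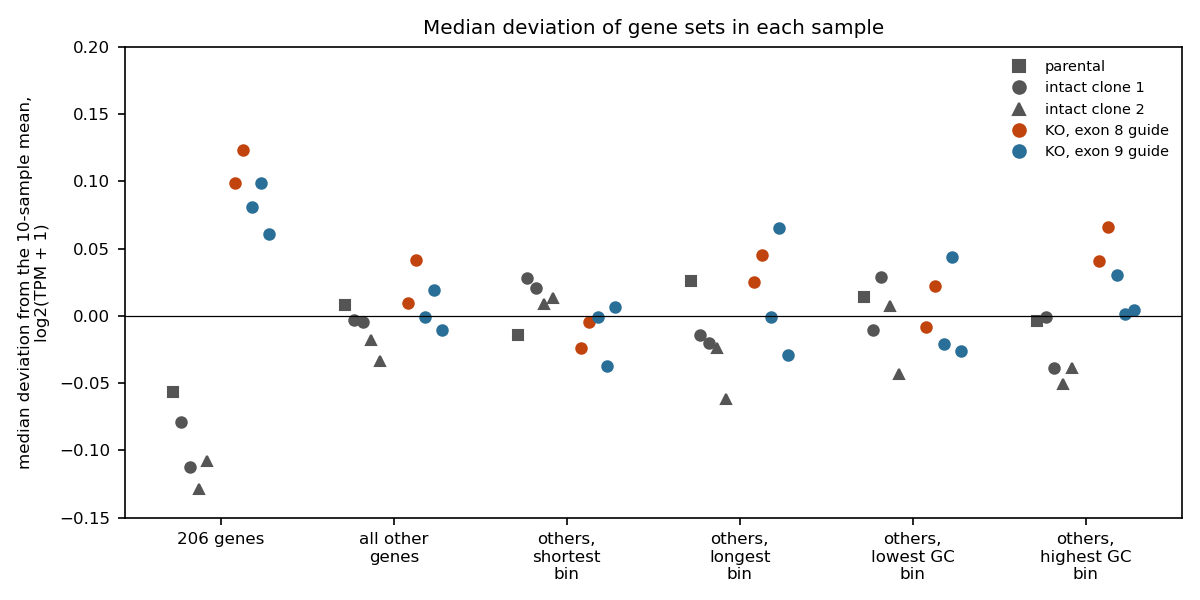
Median deviation of log2(TPM + 1) from the mean of the 10 samples (y axis) for the 206 genes, all other genes at 1 TPM or more, and the other genes in the extreme bins of transcript length and GC content (x axis), with 1 point per sample. The KO clones (coloured) are at 0.06 to 0.12 for the 206 genes, and for the other genes of the highest GC bin every KO clone also lies above every intact sample.

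When each sample was centred within 20 bins of transcript length, 92 genes met the rule, 78 of them from the 206. Centring within 20 bins of GC content left 69 genes, 57 of them from the 206, and centring by length and then by GC content left 79, 58 of them from the 206. The balance of directions moved as well. In TPM, 209 genes were higher and 73 lower in every KO clone before any gene was left out by name. The split was 94 higher and 115 lower after centring by length, 72 and 149 by GC content, 83 and 119 by both, 127 and 113 with median-ratio scaling, and 123 and 100 with quantile normalization.

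Of the 206 genes, 34 met the rule under all 5 of these settings and 58 under none of them. The 34 had a median ratio of 1.252, against 1.155 for the other genes of the 206. They included the 6 genes with the widest margin, together with Bdh1, Tle3, Phyh, Mnt, Ptk7, Cpsf7, Mark4, Asap2, Rad21, Nr1d2, Whamm, Pip5k1c, Zfp36l2 and Rbpj. Many of the genes given above with their values moved towards 0. Oaz1 had a log2 difference of -0.0033 once centred by length. Centred by both length and GC content, the log2 difference of Nisch went from 0.16 to 0.00074, of Cep170b from 0.20 to 0.05, of C1qbp from 0.10 to 0.04, of Map7d1 from 0.20 to 0.07, of Tln1 from 0.22 to 0.08, of Zer1 from 0.30 to 0.14 and of Dvl2 from 0.25 to 0.12. It also fell by over 1.5 times for Arhgef5, Cttn, Ephb4, Foxp4, Mapk13, Mrtfa, Ncstn, Phf2 and Pnpla2. Whether fragment length, RNA quality or the amplification of cDNA differed between the groups was not measured here, and the part of transcript length and GC content in the single values was not tested beyond these settings.

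By annotation (GENCODE M21, GRCm38), 195 of the 206 genes were protein coding (94.7%, against 85.0% of the expressed genes), and the others were long non-coding, antisense, sense intronic or pseudogene entries, and Gm43359, which the annotation leaves without a verified class. Several lay next to each other. Ctdnep1 (chr11:69981156-69990601) and Dvl2 (chr11:70000595-70012301) followed each other on the plus strand of chromosome 11, and Unc45a, Man2a2 and Furin lay in a row on the minus strand of chromosome 7, from 80325292 to 80405436. Akt1 and Zbtb42 started from opposite strands of chromosome 12 with 3944 bases between them. Ctdnep1 overlaps Elp5 (180 TPM) and Dvl2 overlaps Acadvl (168 TPM) on the opposite strand, and Ncstn likewise overlaps Copa (220 TPM); the ratios of those genes were 0.956, 0.987 and 1.02. Whether the reads were counted by strand is not given in the sources used here, so reads from such pairs may not be told apart.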

How the data were processed

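RNA-seq of 10 mpkCCD samples was used. The authors made TPM for each Ensembl gene, given to 2 decimals, from full-length amplified cDNA with STAR and RSEM per the labels; replicates were not pooled, and 0 columns of samples were left unused. The authors' expected counts were not used here, and TPM keeps no depth. Precision therefore rests on the samples, which were 5 KO clones and 5 intact samples from 3 cell lines. An SD of the intact samples mixes repeats of a clone with differences between lines. The genes were found by the rule given in the report. Members, gene lists and functional groups were chosen with earlier results of these data known.

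The 20000 most abundant genes by mean TPM entered a fit on log2(TPM + 1) with limma 3.58.1 in R 4.3.3 (trend, Benjamini-Hochberg, threshold 0.05), in 3 groups (intact, exon 8, exon 9) for the guides and 5 groups, with each intact line on its own, for the intact clones. The procedure was tested on simulated data. A log2 difference on this scale understates the change of genes at few TPM. Transcript length, GC content, positions and shared 50-base windows came from GENCODE M21 (GRCm38), matched by gene ID. The authors aligned to a later annotation. Promoters came from RefSeq (GRCm38.p6). Python 3.11.15, pandas 2.3.3, numpy 2.4.6 and matplotlib 3.10.9 were used.

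Genes are named with values by a rule: up to 8 with the largest ratio, 8 with the highest TPM, 6 with the widest and 3 with the narrowest margin, the 3 that missed the rule by least, those called by limma and those on the gene lists. Other genes were named to describe a shared function, after their values were seen. The alternatives were other minimum TPM (0.5, 2, 5) and pseudocounts (0.1, 0.5), median-ratio and quantile scaling, rescaling without mitochondrial genes, centring by length and GC content, a margin of 1.1 times, 1 value per cell line, each guide alone, limma settings, and leaving out each sample. Centring by length and GC content together, and counting under each guide alone, were added after seeing the data.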

Additional observations from a re-analysis of the deposited data

Results flagged for a closer look

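Within a group of 5 samples, 1 sample stood apart from the rest for 8 of the 41 genes named by rule in KO 2 and for 2 in an intact sample, when the gap to its nearest neighbour was set against the group's range (Dixon's criterion, 0.71 for 5 samples). Among 82 groups examined, chance alone gives such a gap in about 1 in 20, but that rate is no yardstick here: the rule used these values and leaves more room for a high KO or a low intact sample than for the reverse. KO 2 was the highest KO clone by this measure for Wasf1 (14.5 TPM), Papln (16.3 TPM), Ttyh3 (18.5 TPM), Cttn (294 TPM), Gtf2i (97.8 TPM), Kat2a (58.5 TPM), Ephb4 (71.4 TPM) and Rbpj (5.99 TPM). Intact sample 2_1 was the lowest intact sample for Cttn (224 TPM), and intact sample 1_2 the lowest for Ephb4 (40.1 TPM).

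Between the guides, Ak3 differed by -0.30 and Pnpla2 by -0.33 on the log2(TPM + 1) scale, exon 9 minus exon 8 (limma, adjusted p = 0.044 and 0.047), a contrast that uses KO values the rule also used. When lines entered as random effects the adjusted p was 0.065 and 0.072, and with 1 value per cell line 0.13 and 0.15, so neither call held. Both exon 8 clones were above all 3 exon 9 clones for both genes.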

How the results depend on the processing

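The count of 206 genes stayed within 1.5 times under another minimum TPM and rescaling without mitochondrial genes. It became 125 with median-ratio scaling, 121 with quantile normalization, 92 and 69 when centred by length and by GC content, 79 by both, and 11 when the lowest KO value had to be 1.1 times the highest intact value. It became 361 with 1 value per cell line, 1580 with the exon 8 and 590 with the exon 9 clones alone, since fewer samples have to be passed. Leaving out 1 sample gave 251 to 408 genes (408 without the parental line, 370 without KO 1, 349 without KO 5, 333 without KO 2). Their median log2 difference of 0.21 was 0.18 with quantile normalization, 0.17 centred by length, 0.15 centred by both, and 0.20 to 0.23 without 1 sample. Oaz1 changed sign, to -0.0033 centred by length and -0.042 by both. The cause of these changes was not tested.

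Between the guides, 62 genes were called. The count was 147 at an adjusted p under 0.1, 6 with 1 value per cell line, 36 with a random effect for the line, and 21 to 1730 without 1 sample: 1730 without KO 1, 634 without KO 2 (both leave 1 exon 8 clone, assumed to vary like the other groups), 21, 31 and 29 without KO 3, KO 4 and KO 5, and 23, 21, 21 and 25 without intact samples 1_1, 1_2, 2_1 and 2_2. Ak3 was called in 9 and Pnpla2 in 6 of 21 alternatives, with adjusted p of 0.012 to 0.14 and 0.0041 to 0.15. Between the intact clones, 34 genes were called. The count was 64 with all genes above 0, 19 without a trend, 62 at an adjusted p under 0.1, and 12 to 195 without 1 sample: 195, 194, 12, 20 and 13 without KO 1 to KO 5, and 65, 69 and 69 without intact samples 1_1, 1_2 and 2_1. Dvl2 was called in 10 and Kat2a in 12 of 19 alternatives, with adjusted p of 0.0089 to 0.10 and 0.0048 to 0.077, and every alternative kept the direction of these 4 genes. The cause was not tested. No paired analysis was possible because the numbers of KO and intact clones do not pair them. Depth limits are unknown for TPM.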

Other observations

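Of all 13047 genes at 1 TPM or more, 1.58% were among the 206. Chromosome 11 held 35 of the 206 genes among its 1053 expressed genes (3.32%), chromosome 15 held 15 of 504 (2.98%) and chromosome 7 held 26 of 960 (2.71%). Chromosome 10 held 16 of 624 (2.56%) and chromosome 12 held 11 of 494 (2.23%). Among the lower shares were chromosome 3 with 2 of 665 (0.301%), chromosome 8 with 3 of 730 (0.411%) and chromosome X with 2 of 349 (0.573%). Gene density, transcript length and GC content differ between chromosomes, and these shares were not tested.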
